A study of Mus musculus with 11 samples.

Results

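Follicular regulatory T (Tfr) cells were examined in a single-cell RNA library of CD4 T cells as the cells that carried transcripts of Foxp3, Cxcr5 and Pdcd1 together. A cell was a member if it had at least 1 unique molecular identifier (UMI, the tag that marks 1 captured RNA molecule) of each of these genes and no UMI of the B cell gene Cd79a. The members were therefore selected on measured values, and the levels of these 4 genes are given below only as a description. The rule found 113 cells among the 13190 cells that had at least 500 genes and under 10% mitochondrial UMIs. They were compared with 1873 cells with Foxp3 but neither Cxcr5 nor Pdcd1, called the Treg gate, and with 822 cells with Cxcr5 and Pdcd1 but no Foxp3, called the Tfh gate. Cells with a Cd79a UMI were left out of these gates too.

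Tfr cells are regulatory T (Treg) cells that enter the B cell follicle and restrain the germinal centre reaction. Like other Treg cells they depend on Foxp3, the transcription factor that sets the suppressive programme, and like follicular helper T (Tfh) cells they use CXCR5 to follow CXCL13 into the follicle, carry the inhibitory receptor PD-1 and rely on the repressor BCL6. Tfh cells help B cells with IL-21, IL-4 and CD40 ligand. Tfr cells limit that help, in part through CTLA-4 and through the decoy receptor and the antagonist of IL-1.

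The series holds 11 mouse samples in 8 groups, of which 3 were used and 8 were not analysed here. All came from draining lymph nodes of C57BL/6 mice, and the sources used here give neither the age of the mice nor the immunisation. The single-cell library was made from sorted CD44+CD4+ T cells, which are antigen-experienced, of mice heterozygous for a Sostdc1-EGFP reporter allele, so every cell in the 3 gates carried that allele. The other 2 libraries are bulk RNA of sorted Tfr cells (CXCR5+, PD1+, GITR high), labelled WT and Sostdc1 KO. Sostdc1 encodes a secreted protein that blocks BMP and Wnt signals, and the series asks whether Tfh cells that make it promote Tfr differentiation. Each group is 1 library. No test between groups could be made, and every interval below is a 95% interval that covers counting error only, not the spread between animals.

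The single-cell library held 15002 barcodes with 500 to 78924 UMIs each. The Tfr gate was deeper than the gates it is compared with: the median cell had 10899 UMIs, against 6129 in the Treg gate and 7707 in the Tfh gate. Of the members, 32 (28.3%) were among the 10% of all cells with the highest doublet scores, against 12% of the Treg gate and 8.76% of the Tfh gate. RNA of a Treg cell and a Tfh cell under 1 barcode would also pass the rule, and the part of such barcodes in the results was not tested. Some list counts and shares are also given without the cells of the highest doublet scores or at a narrower depth, and most levels of single genes are not. For named genes the closing section tells which stayed past 2-fold in every alternative.

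The members made up 4.32% (3.58 to 5.18) of the 2613 cells with a Foxp3 UMI and no Cd79a UMI. They were 12.1% (10.1 to 14.3) of the 935 cells with both Cxcr5 and Pdcd1. Among cells with no Foxp3 UMI, 9% had both Cxcr5 and Pdcd1. The share of Foxp3 cells inside the gate was 1.72% below 5000 UMIs per cell and 8.37% from 20000 UMIs up. After each cell was thinned to 3000 UMIs, which left out 1021 shallower cells, 22 of 1615 Foxp3 cells (1.36%) still had both follicular genes. At that depth 22 of 362 Cxcr5 and Pdcd1 cells (6.08%) had Foxp3. In B cells, which should lack it, Foxp3 had a UMI in 2.82% of cells at a median depth of 4753 UMIs, and in 2.14% after thinning.

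The gate genes were sparse in single members. Foxp3 had exactly 1 UMI in 50 members, 2 in 18 and 3 or more in 45, with a highest value of 11. Cxcr5 had 1 UMI in 62 members and reached 10, and Pdcd1 had 1 UMI in 47 members and reached 17. Just inside the rule lay 10 members with a single UMI of each gene, while 17 members had at least 2 UMIs of each. Just outside it lay 200 Foxp3 cells with Cxcr5 but no Pdcd1, and 427 with Pdcd1 but no Cxcr5. Summed over the gate, Foxp3 reached 187 UMIs per 1000000 UMIs of the gate (CPM) in the Tfr gate and 284 CPM in the Treg gate. Cxcr5 was at 163 CPM and Pdcd1 at 202 CPM in the Tfr gate, against 240 and 319 CPM in the Tfh gate.

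Of the markers given for Tfr cells, Bcl6 alone was not used by the rule. Bcl6, the repressor required for the follicular fate, had a summed level of 18.3 CPM (12.1 to 26.4) in the Tfr gate, from 28 UMIs in 19 cells. This was 3.98-fold (2.47 to 6.23) above the 4.59 CPM of the Treg gate and 3.44-fold (2.35 to 5.23) below the 62.8 CPM of the Tfh gate. The share of cells with a Bcl6 UMI was 16.8% in the Tfr gate, 3.68% in the Treg gate and 40.1% in the Tfh gate. Thinned to 3000 UMIs these shares were 8.93%, 1.68% and 19.6%, against 6.59% in B cells, which also express Bcl6 in germinal centres.

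Markers of other cell types were compared as whole lists. The 10 T cell genes, Cd3d to Thy1, summed to 7892 CPM in the Tfr gate, 6372 in the Treg gate and 8996 in the Tfh gate. At unequal depths, 42.5% of members had a UMI of a selected B cell, myeloid, CD8 or plasma cell marker. The shares were 37.0% in the Treg gate and 25.9% in the Tfh gate. The 17 B cell genes summed to 1188 CPM in the Tfr gate, 1349 in the Treg gate and 664 in the Tfh gate. Of the 17, only Ms4a1 was at 0 UMIs in the Tfr gate. Of 9 B cell genes with at least 20 CPM, 2 were at least 2-fold above the Treg gate, Ly6d among them, and 2 below it, and of 6 measured against the Tfh gate 2 were above it. The 12 myeloid genes summed to 423 CPM, against 700 and 493, with 4 of the 12 at 0 UMIs in the Tfr gate, Csf1r and Itgax among them. The 10 genes of CD8 T cells and NK cells summed to 101 CPM, against 106 and 108, the 6 plasma cell genes to 64 CPM, against 80 and 61, and the 6 stromal genes to 61 CPM, against 57 and 90. Erythroid and platelet genes summed to 5 CPM in the Tfr gate and 6 in the Tfh gate but 1582 in the Treg gate, where 37.1% of the Hbb-bs UMIs came from 1 cell.

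Over all genes, differences from either gate were few and were listed by a fixed size. Of 5644 genes with at least 20 CPM in the Tfr or the Treg gate, 93 (1.65%) were higher and 63 (1.12%) lower in the Tfr gate by at least 2-fold. Against the Tfh gate, 139 of 5723 genes (2.43%) were higher and 77 (1.35%) lower by at least 2-fold. The median log2 ratio of all genes was 0.08 against the Treg gate and 0.02 against the Tfh gate. With median-of-ratios scaling the split against the Treg gate was 70 higher and 79 lower, and against the Tfh gate 129 higher and 77 lower. These shares are the background against which each gene list below is read. A gene could pass the 20 CPM filter through 1 gate alone, and such a gene is more likely to count as higher in that gate.

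**Figure D1:**
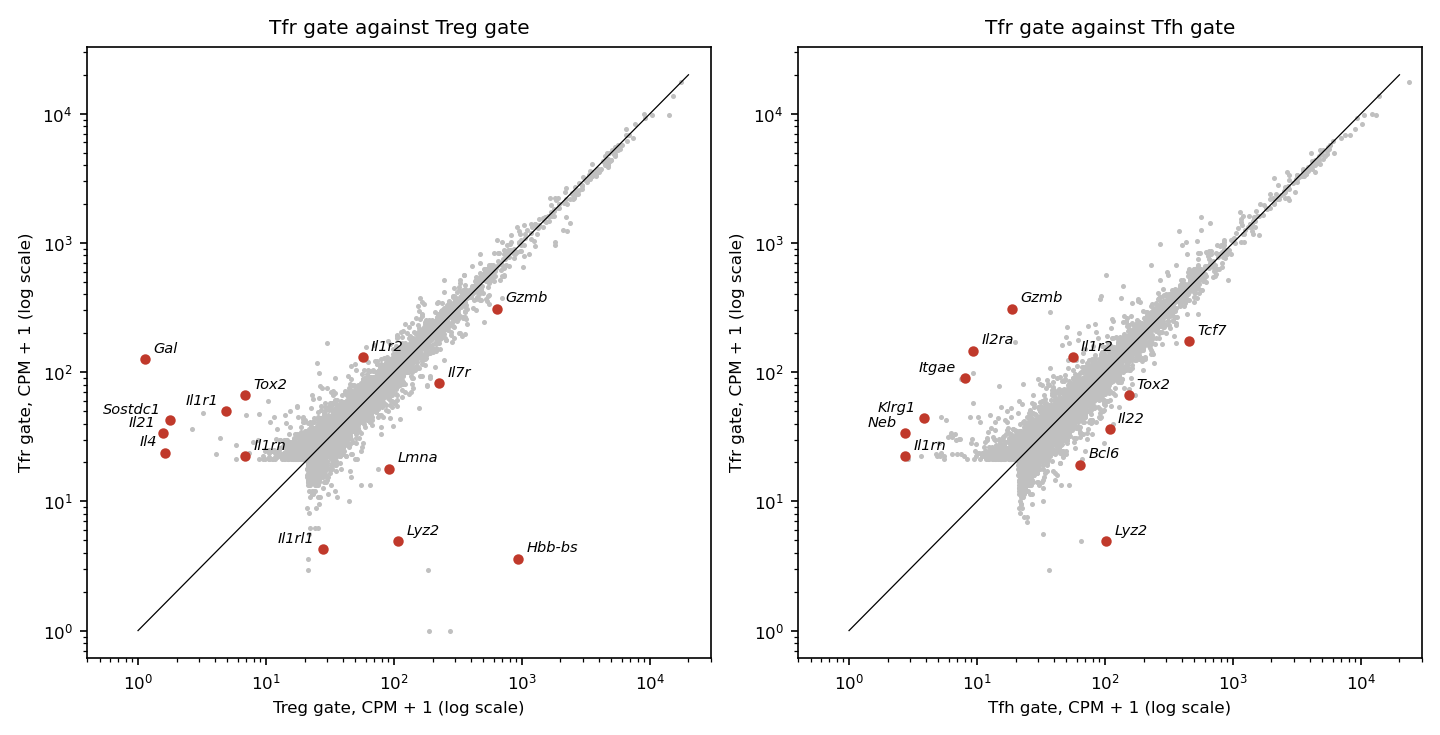
Level of each gene with at least 20 CPM in the Tfr gate (y axis, CPM plus 1, log scale) against the Treg gate (left) and the Tfh gate (right), with a line at equal levels; red points are named genes. Most genes lie near the line, while Il21, Il4, Sostdc1 and Tox2 lie far above it against the Treg gate, and Gzmb, Il2ra and Itgae far above it against the Tfh gate.

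Genes of Treg identity had nearly the same level in the Tfr gate as in the Treg gate. Of the 15 list members with at least 20 CPM, 0 were higher and 2 lower by at least 2-fold, and the median log2 ratio was -0.13 beside 0.08 for all genes. The whole list summed to 4376 CPM (4272 to 4482) in the Tfr gate, 4360 in the Treg gate and 1576 in the Tfh gate. Against the Tfh gate, 10 of 13 members were at least 2-fold higher, with a median log2 ratio of 2.03.

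Ctla4, the receptor that strips CD80 and CD86 from B cells and dendritic cells, stood at 366 CPM (336 to 397), against 328 in the Treg gate and 89.9 in the Tfh gate. A Ctla4 UMI was found in 81.4% of members and in 64.5% of the Treg gate, but after thinning to 3000 UMIs in 49.1% and 47.1%, so the shares came close at equal depth. Ikzf2, which encodes Helios, was at 680 CPM against 744 and 228. Tnfrsf18, which encodes the GITR receptor used to sort the bulk Tfr cells, was at 459 CPM against 474 and 138.

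Il2ra, the high-affinity chain of the IL-2 receptor, was at 145 CPM (127 to 166) in the Tfr gate. This level was 17.3-fold (13.1 to 23.1) above the 8.39 CPM of the Tfh gate, and 1.46-fold (1.27 to 1.67) below the 212 CPM of the Treg gate. At 3000 UMIs per cell, 25.9% of members had an Il2ra UMI, against 36.9% of the Treg gate and 2.62% of the Tfh gate. The 2 identity genes at least 2-fold below the Treg gate were Socs2, a feedback inhibitor of cytokine signals, at 20.2 against 48.3 CPM, and the receptor gene Gpr83, at 11.1 against 23.3 CPM. Of the 12 genes of the IL-2 and STAT5 axis, 1 was at least 2-fold below the Treg gate, Socs2, and 3 of 12 were at least 2-fold above the Tfh gate.

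Effector Treg genes were kept in part. Of 14 members with at least 20 CPM, 3 were at least 2-fold below the Treg gate: Gzmb, Klrg1 and Il1rl1. Gzmb, the cytotoxic protease granzyme B, stood at 310 CPM against 634 in the Treg gate, 2.05-fold lower (1.87 to 2.25), and 17.3-fold (14.3 to 21.0) above the 17.9 CPM of the Tfh gate. Klrg1, a receptor of terminally differentiated effector cells, was at 43.0 CPM against 91.7 and 2.88. Il1rl1, which encodes the IL-33 receptor ST2 found on tissue-type Treg cells, had 5 UMIs and 3.26 CPM, 8.25-fold (3.51 to 25.6) below the 26.9 CPM of the Treg gate.

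Prdm1, which encodes Blimp-1, the repressor that opposes BCL6, was as high in the Tfr gate as in the Treg gate. Its level was 31.3 CPM (23.1 to 41.5) against 35.2 in the Treg gate, a fold of 0.889 (0.648 to 1.20), and 6.10-fold (3.94 to 9.49) above the 5.13 CPM of the Tfh gate. A UMI of both Bcl6 and Prdm1 was seen in 4 members, while 15 had Bcl6 without Prdm1, 28 had Prdm1 without Bcl6 and 66 had neither. Itgae, which encodes the integrin chain CD103, was at 89.3 CPM, against 138 and 7.01.

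Among suppressive mediators, 0 of 10 were at least 2-fold above the Treg gate and 2 were at least 2-fold below it, Gzmb and Fgl2. Il10, the suppressive cytokine, missed the level filter at 14.3 CPM (8.99 to 21.7), with 22 UMIs in 10 members, against 6.51 CPM in the Treg gate and 3.50 in the Tfh gate. Its fold over the Treg gate was 2.21 (1.32 to 3.52). Tgfb1 was at 130 CPM against 150 and 102. Fgl2, a secreted suppressor of the fibrinogen family, was at 12.4 CPM, 2.50-fold (1.58 to 4.18) below the 30.9 CPM of the Treg gate and 3.81-fold (1.99 to 7.15) above the Tfh gate. Areg, a growth factor of tissue repair, was at 88.0 CPM, 1.96-fold (1.61 to 2.35) above the Treg gate and 13.5-fold (9.75 to 19.0) above the Tfh gate, with 39.3% of its UMIs in 1 member.

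**Figure D2:**
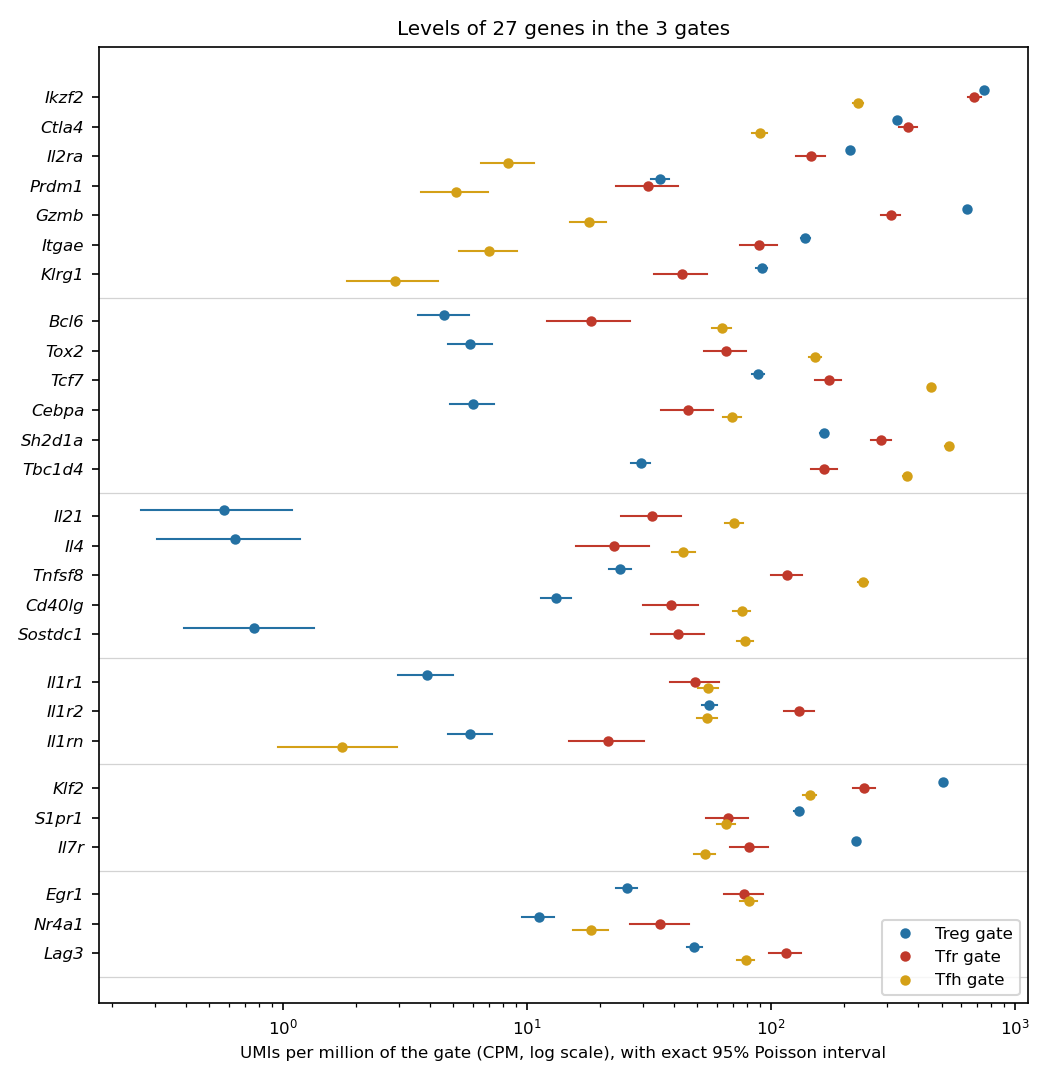
Levels of 27 genes (CPM, log scale) in the Tfr gate (red), the Treg gate (blue) and the Tfh gate (yellow), with exact 95% Poisson intervals as lines; genes are grouped as Treg, Tfh, help, IL-1, egress and activation genes. Ctla4 and Prdm1 in the Tfr gate lie by the Treg gate, Il1r1 lies by the Tfh gate, Bcl6, Tox2 and Il21 lie between, and Il1r2 and Il1rn lie above both.

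Genes of the Tfh programme were higher in the Tfr gate than in the Treg gate and lower than in the Tfh gate. Of 20 members with at least 20 CPM, 11 were at least 2-fold above the Treg gate and 0 at least 2-fold below it, with a median log2 ratio of 1.05. Tox2, Cebpa, Angptl2 and Krt83 reached 20 CPM in the Tfr but not the Treg gate, so the filter favoured a high count. Of 25 members measured against the Tfh gate, 8 were lower and 0 higher by at least 2-fold, with a median of -0.81. The list summed to 4063 CPM (3962 to 4165) in the Tfr gate, 2335 in the Treg gate and 5068 in the Tfh gate. Without the cells of the highest doublet scores, 12 of 20 members were at least 2-fold above the Treg gate, and among cells with 5000 to 15000 UMIs 18 of 25 were.

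Tox2, a factor that supports Bcl6 expression, was at 65.2 CPM (53.1 to 79.3) in the Tfr gate, 11.1-fold (8.29 to 14.9) above the Treg gate and 2.33-fold (1.90 to 2.88) below the Tfh gate. Ascl2, a factor that induces Cxcr5, had 13.7 CPM in the Tfr gate from 21 UMIs in 9 members, against 0.383 and 31.9 CPM. Pou2af1, a coactivator also used by B cells, was at 16.3 CPM against 3.19 and 38.5. Tcf7, which encodes the Wnt-pathway factor TCF-1, was at 172 CPM against 88.5 and 454. Cebpa was at 45.6 CPM against 6.00 and 69.1, and Angptl2, a secreted glycoprotein, at 58.7 CPM against 9.44 and 103. Krt83, a keratin, was at 47.6 CPM against 2.23 and 91.0, with 28.8% of its UMIs in 1 member.

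Other genes of the Tfh programme, named after their values were seen, were Maf, Batf, Icos and Sh2d1a. Maf, which drives Il21 and Il10, was at 666 CPM, against 406 in the Treg gate and 629 in the Tfh gate. Batf, a partner of IRF4, was at 338 CPM against 170 and 234. Icos, a costimulatory receptor that both cell types need in the follicle, was at 672 CPM against 554 and 357. Sh2d1a, which encodes the adaptor SAP for contacts with B cells, was at 282 CPM, between 165 and 534. None of the 7 genes of the SLAM family and its adaptors with at least 20 CPM differed at least 2-fold from either gate.

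Transcripts of the cytokines and ligands of B cell help were present in the Tfr gate. Of the 6 list members with at least 20 CPM in the Tfr or Treg gate, 5 were at least 2-fold above the Treg gate, with a median log2 ratio of 2.36. Il21, Il4, Tnfsf11 and Cd40lg reached 20 CPM in the Tfr but not the Treg gate, so the filter favoured a high count and median. Against the Tfh gate, 3 of 7 were at least 2-fold lower, with a median of -0.96. The list summed to 271 CPM in the Tfr gate, 77 in the Treg gate and 524 in the Tfh gate. Leaving out the cells of the highest doublet scores, or keeping only cells with 5000 to 15000 UMIs, left 5 of 6 at least 2-fold above the Treg gate.

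Il21, the main cytokine of B cell help, was at 32.6 CPM (24.2 to 43.0) from 50 UMIs in 18 members, with 32.0% of them in 1 member. It was at 0.574 CPM in the Treg gate and 70.8 CPM in the Tfh gate, so the Tfr gate was 56.8-fold (27.7 to 131) above the first and 2.17-fold (1.63 to 2.96) below the second. An Il21 UMI was found in 15.9% of members, 0.320% of the Treg gate and 31.3% of the Tfh gate, and after thinning in 8.04%, 0.116% and 16.3%. In B cells the share was 0.223%. Il4, which drives class switching, was at 22.8 CPM in 15 members, 35.8-fold (17.3 to 81.0) above the Treg gate and 1.92-fold (1.35 to 2.80) below the Tfh gate. Il2 was at 6.52 CPM in the Tfr gate, 6.70 in the Treg gate and 22.2 in the Tfh gate, where 58.2% of its UMIs were in 1 cell. Among cells with 5000 to 15000 UMIs the Il2 ratio to the Tfh gate had the opposite sign, at a log2 of 0.23.

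The ligands followed the same order. Tnfsf8, which encodes CD30 ligand, was at 116 CPM, 4.81-fold (4.01 to 5.77) above the Treg gate and 2.06-fold (1.76 to 2.41) below the Tfh gate. Tnfsf11, which encodes RANK ligand, was at 26.1 CPM, 5.45-fold (3.62 to 8.11) above the Treg gate and at 0.702 (0.491 to 0.978) of the Tfh level. Cd40lg was at 39.1 CPM, 2.96-fold (2.19 to 3.97) above the Treg gate and 1.94-fold (1.49 to 2.58) below the Tfh gate.

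Sostdc1, the gene the series is about, was detected in the Tfr gate. Its summed level was 41.7 CPM (32.1 to 53.3) from 64 UMIs in 11 members, with 21.9% of them in 1 member. The Treg gate had 0.765 CPM and the Tfh gate 78.4 CPM, so the Tfr gate was 54.5-fold (29.2 to 111) above the Treg gate and 1.88-fold (1.45 to 2.47) below the Tfh gate. A Sostdc1 UMI was found in 9.73% of members, 0.587% (0.29 to 1.05) of the Treg gate and 16.1% of the Tfh gate, against 1.56% (0.63 to 3.19) of B cells. The intervals of the Treg gate and the B cells overlapped, so the Treg gate did not stand above the background seen in B cells. After thinning the shares were 8.93%, 0.231%, 10.5% and 0.488%.

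The members with Il21 or Sostdc1 had a lower median of the Treg list and a higher median of the Tfh list than those without. The 18 members with an Il21 UMI had a median of 28.3 UMIs of the Treg identity list per 10000 UMIs, against 40.5 in the 95 without. Their median for the Tfh programme list was 50.3 per 10000, against 41.0. All 18 had a UMI of Ikzf2, Ctla4 or Il2ra, and 6 of them had the highest doublet scores. The Tfh gate, which has no Foxp3 UMI, had Ikzf2 in 61.8% and Ctla4 in 40.6% of cells. Its median depth was 7707 UMIs, against 13803 in these 18 members, so such UMIs do not set Treg cells apart here. The 11 Sostdc1 members had a median of 28.6 for the Treg list and 64.6 for the Tfh list, 10 had an Ikzf2 UMI and 5 had the highest doublet scores. Members with Foxp3 at only 1 UMI had more Sostdc1, at 93.4 CPM, than those with 2 or more, at 12.3 CPM, and more Il21, at 62.9 against 15.4 CPM. Il21 and Sostdc1 were found together in 3 members.

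The IL-1 system held 2 genes with a higher level in the Tfr gate than in either other gate. IL-1 acts through the receptor encoded by Il1r1, while Il1r2 encodes a decoy receptor that binds IL-1 without signalling and Il1rn encodes the receptor antagonist. Il1r2 was at 130 CPM (113 to 150) from 200 UMIs in 56 members, against 56.0 CPM in the Treg gate and 54.9 CPM in the Tfh gate. This was 2.33-fold (1.99 to 2.72) above the Treg gate and 2.37-fold (2.00 to 2.81) above the Tfh gate. At 3000 UMIs per cell, 22.3% (15 to 31.2) of members had an Il1r2 UMI, against 9.43% (8.09 to 10.9) and 9.71% (7.75 to 12), and 0.244% of B cells.

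Il1rn was at 21.5 CPM (14.8 to 30.2) from 33 UMIs in 12 members, 3.67-fold (2.39 to 5.51) above the Treg gate and 12.3-fold (6.40 to 24.8) above the Tfh gate. Of its UMIs 27.3% were in 1 member. After thinning, 4 of 112 members had an Il1rn UMI, 3.57% (0.98 to 8.89). The Treg gate then had 1.16% (0.71 to 1.78), so these intervals overlap, and the Tfh gate 0.498%. Members with 1 Foxp3 UMI had Il1rn at 7.18 CPM, and those with 2 or more at 29.7 CPM. An Il1rn UMI was found in 17.2% of the myeloid cells of the library. Il1r1 was at 48.9 CPM (38.5 to 61.3), 12.6-fold (8.85 to 17.9) above the Treg gate and at 0.884 (0.683 to 1.13) of the Tfh level. Il1r1 and Il1r2 were found together in 28 members (24.8%), against 1.39% of the Treg gate and 9% of the Tfh gate at their own depths. The accessory chain Il1rap was at 5.87 CPM against 4.40 and 4.76.

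Members with Il1r2 or Il1rn had more of the Treg list than those without. The 56 members with an Il1r2 UMI had a median Treg list level of 44.8 per 10000, against 31.5 in the others, and 10 of them had the highest doublet scores, against 22 of the others. The 12 members with Il1rn had a median Treg list level of 77.6, against 36.0 in the rest, and a median Tfh list level of 44.6, against 41.0. Of these 12, 8 had Il1r2 as well. Members with Il10 (10 cells), Gzmb (43 cells) and Prdm1 (32 cells) also had high Treg list levels, with medians of 101, 53.1 and 57.4.

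Of 5505 genes with at least 20 CPM in the gates of both comparisons, 7 (0.127%) were at least 2-fold above both gates and 7 (0.127%) at least 2-fold below both. Beside Il1r2 and Il1rn, the genes above both were Ly6d, Actg2, Pdzk1ip1, Fabp4 and Tamm41. Il1rn and Actg2 reached 20 CPM in the Tfr gate but in neither other gate, so they passed the filter only where they were high. Ly6d, a lymphoid surface gene found in 90.2% of B cells, had 90.7% of its UMIs in 1 member. Fabp4, a fatty-acid carrier, had UMIs in 5 members. Actg2, a smooth-muscle actin gene, was more spread, at 45.6 CPM from 70 UMIs in 22 members, 3.47-fold (2.61 to 4.58) above the Treg gate and 3.92-fold (2.83 to 5.41) above the Tfh gate. Pdzk1ip1 was at 28.7 CPM in 19 members and the mitochondrial gene Tamm41 at 20.2 CPM in 21 members. Of the 7 genes, Il1rn alone stayed past 2-fold against both gates in every alternative run. Ly6d, Fabp4 and Tamm41 changed sign against both gates in at least 1 alternative, as did Pdzk1ip1 against the Treg gate.

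The 7 genes below both were Lyz2, Ifitm1, Cxcl10, Ifitm3, Ccl5, Pik3ip1 and Filip1l. Lyz2, the lysozyme of myeloid cells, was at 3.91 CPM against 107 and 101, with 80.5% of the Tfh gate's UMIs in 1 cell. In the Tfh gate 1 cell also held 88.8% of the Ifitm1 UMIs, 58.3% of those of Cxcl10, 44.9% of those of Ifitm3 and 37.9% of those of Ccl5. Lyz2, Ifitm1, Ifitm3 and Cxcl10 changed sign against the Tfh gate in at least 1 alternative. Ccl5, a chemokine of cytotoxic and memory cells, was at 12.4 CPM against 54.2 and 51.2. Pik3ip1, an inhibitor of PI3K that is lost on activation, was at 9.78 CPM against 25.4 and 21.3.

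Genes of resting and recirculating T cells were lower in the Tfr gate than in the Treg gate. Of 16 members of the list, 4 were at least 2-fold below the Treg gate and 0 above it, with a median log2 ratio of -0.66, while the median against the Tfh gate was -0.06. Klf2, which keeps S1pr1 on and holds cells in circulation, was at 241 CPM, 2.1-fold (1.90 to 2.34) below the 508 CPM of the Treg gate and above the 144 CPM of the Tfh gate. S1pr1, the egress receptor, was at 66.5 CPM against 130 and 65.6, at the level of the Tfh gate. Il7r, the receptor of a survival cytokine, was at 81.5 CPM, 2.75-fold (2.30 to 3.31) below the 224 CPM of the Treg gate. Ccr7, which holds cells in the T zone, was at 49.6 CPM against 85.5 and 51.9.

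Homing receptors differed more from the Tfh than from the Treg gate. Of 13 chemokine and egress receptors, 0 were at least 2-fold above the Treg gate and 1 below it, Ccr10, at 5.22 against 24.6 CPM. Against the Tfh gate 4 were at least 2-fold higher, among them Ccr2, at 172 CPM and 9.20-fold (7.49 to 11.3). Ccr6, a receptor of Th17 cells and some Treg cells, was at 86.7 CPM, above the 56.3 CPM of the Treg gate and the 28.8 CPM of the Tfh gate. S1pr2, which confines cells to the germinal centre, was at 17 CPM against 7.97 and 28.9.

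Genes of cell shape, S100, annexin and galectin families were in between. Of 14 such genes 2 were at least 2-fold below the Treg gate, Anxa1 and Ahnak, and the median log2 ratio was -0.62. Of 13 such genes 10 were at least 2-fold above the Tfh gate. Vim, the vimentin of migrating cells, was at 1226 CPM against 2236 and 376, and Lgals1, a galectin with suppressive activity, at 1587 CPM against 2200 and 560. Lmna, which encodes lamin A and belongs to none of the lists, was at 17 CPM, 5.34-fold (3.63 to 8.20) below the Treg gate.

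**Figure D3:**
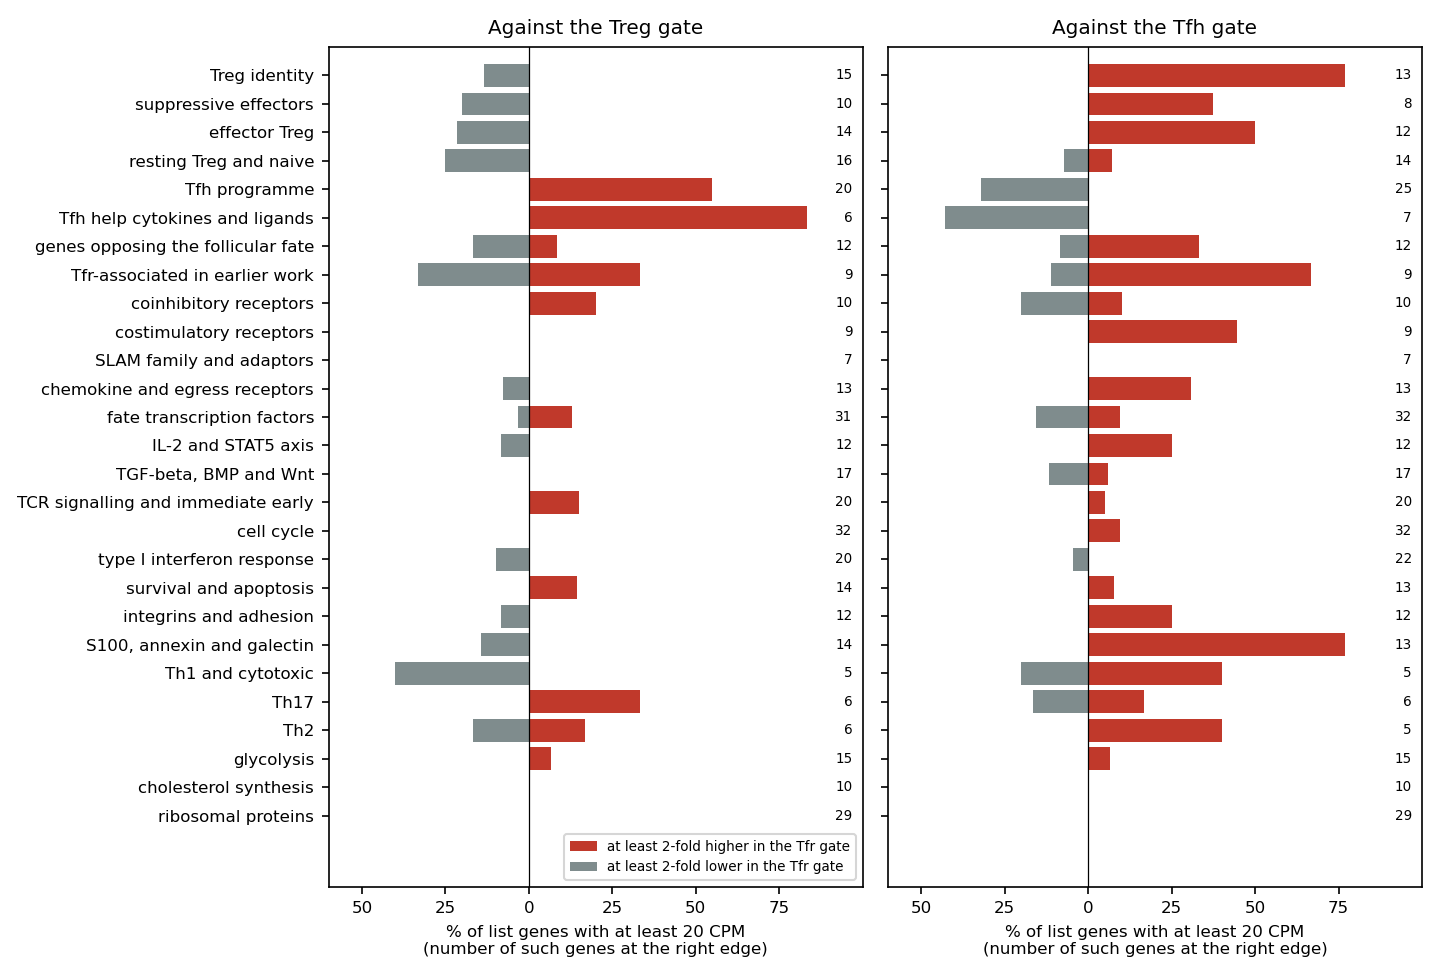
Share of each gene list (percent of its genes with at least 20 CPM) that was at least 2-fold higher (red, to the right) or lower (grey, to the left) in the Tfr gate than in the Treg gate (left panel) or the Tfh gate (right panel); the numbers at the right edge are the genes counted. The Tfh programme and help lists reach to the right against the Treg gate, with 11 of 20 and 5 of 6 genes, and Treg identity reaches to the right against the Tfh gate, with 10 of 13. Some counted genes reached 20 CPM only in the gate where they were higher.

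Of 9 genes tied to Tfr cells in earlier work with at least 20 CPM, 3 were at least 2-fold above the Treg gate, Il1r2, Il1rn and Sostdc1, and 3 at least 2-fold below it, Fgl2, Gzmb and Rgs1, a brake on chemokine signals. Il1rn and Sostdc1 reached 20 CPM in the Tfr but not the Treg gate, and Fgl2 in the Treg but not the Tfr gate. Nrn1, of the same list, was at 20.2 CPM from 31 UMIs in 10 members, against 12.4 and 8.51 CPM. In Foxp3 cells with Pdcd1 but no Cxcr5 it was at 26.0 CPM. Among 12 genes that oppose the follicular fate, P2rx7, an ATP-gated channel, was 4.13-fold (3.06 to 5.51) above the Treg gate, and Klf2 and Il7r were below it. Helper lineage lists gave few genes: Gzmb and Ccl5 of 5 Th1 genes were at least 2-fold below the Treg gate, Il1r1 and Il22 of 6 Th17 genes above it, and of 6 Th2 genes Il4 above and Il1rl1 below. Itga6, an integrin chain, was 2.29-fold (1.64 to 3.30) below the Treg gate, the only one of 12 adhesion genes to pass 2-fold. None of 9 costimulatory receptors, 10 cholesterol synthesis genes or 29 ribosomal protein genes differed at least 2-fold from the Treg gate, and of these lists only the costimulatory receptors did from the Tfh gate, with 4 of 9 higher, among them Tnfrsf4 (OX40) at 983 against 270 CPM.

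Of 31 transcription factors of T cell fate, 4 were at least 2-fold above the Treg gate and 1 below it, with a median log2 ratio of 0.10. Besides Tox2 these included Hif1a and Tox. Hif1a, an oxygen-regulated factor that also promotes glycolysis, was at 377 CPM against 158 and 524. Tox was at 123 CPM against 59.8 and 174. Ikzf4, which encodes the Treg factor Eos, was at 43.7 CPM, 10.3-fold (6.70 to 16.0) above the Tfh gate and at 0.795 (0.610 to 1.02) of the Treg level.

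Activation genes of the T cell receptor differed in part. Of 20 genes 3 were at least 2-fold above the Treg gate: Egr1, Nr4a1 and Nfkbid, which are switched on within minutes to hours of receptor signals. Egr1 was at 77.6 CPM, 3.03-fold (2.45 to 3.72) above the Treg gate and at 0.958 (0.781 to 1.17) of the Tfh level. Nr4a1 was at 35.2 CPM against 11.2 and 18.3, with 25.9% of its UMIs in 1 member. The coinhibitory receptors Lag3, at 115 CPM, and Btla, at 60.6 CPM, were 2.36-fold (2.00 to 2.79) and 2.74-fold (2.16 to 3.45) above the Treg gate. Tnfrsf9, the activation receptor 4-1BB, was at 290 CPM against 207 and 36.2.

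Of 14 survival genes, 2 were at least 2-fold above the Treg gate, Bcl2a1d at 155 against 59.0 CPM and Bcl2a1b at 324 against 154 CPM. These are near-identical copies whose reads can be split between them. Bcl2l1, which encodes BCL-XL, was at 29.3 CPM against 17.7 in the Treg gate and 6.26 in the Tfh gate.

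Proliferation, metabolism and interferon genes gave smaller differences. Of 32 cell cycle genes 0 differed at least 2-fold from the Treg gate and 3 were at least 2-fold above the Tfh gate, Ube2c, Ccnb2 and Ccnb1. Without cycling cells the log2 ratio of Ube2c to the Tfh gate was -0.10. At least 5 UMIs of the cell cycle list were found in 59 members (52.2%), against 32.4% of the Treg gate and 43.3% of the Tfh gate, at unequal depths. The summed level was 4013 CPM against 3805 and 2926. It weights cells by their depth, and the 59 cycling members held 1083161 of the 1533472 UMIs of the Tfr gate. Of 15 glycolysis genes 1 was at least 2-fold above the Treg gate, the lactate carrier Slc16a1, and without cycling cells its log2 ratio was -0.42. All 15 had a ratio above 1 with a median log2 of 0.45. The enzyme gene Tpi1 was 1.90-fold (1.71 to 2.1) above the Treg gate, and 1.12-fold (1.01 to 1.24) above the Tfh gate. Of 20 interferon-response genes 2 were at least 2-fold below the Treg gate, Gbp2 and Usp18, and 19 of 20 had a ratio below 1, with a median log2 of -0.38.

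Of 17 genes of the TGF-beta, BMP and Wnt pathways, 0 differed at least 2-fold from the Treg gate, and the median log2 ratio was -0.11. SOSTDC1 protein acts on the BMP and Wnt pathways among these. Smad7, a feedback inhibitor of TGF-beta signals, was at 80.2 CPM against 121 and 29.9. Axin2, a Wnt target, was at 12.4 CPM, against 23.2 in the Treg gate and 24.9 in the Tfh gate, so it was 1.87-fold (1.18 to 3.15) and 2.01-fold (1.25 to 3.41) lower. Bmp7 was at 24.1 CPM against 15.6 and 16.9.

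Genes that separate the Treg from the Tfh gate placed the Tfr gate between them. Of 202 genes at least 2-fold higher in the Tfh than in the Treg gate, the Tfr level lay between the gates for 191, and on the log2 scale it was nearer to the Tfh gate for 131. The median position was 62.1% of the way from the Treg to the Tfh level in log2 and 43.1% in CPM. Of 227 genes at least 2-fold higher in the Treg gate, 202 lay between, 146 of them nearer to the Treg gate. Their median position was 67.9% of the way from the Tfh to the Treg level in log2 and 52.3% in CPM. The Tfr level was at or past the Treg level for 20 of these 227 genes, and at or past the Tfh level for 3 of the 202. A gate that pools Treg-type and Tfh-type cells would also lie between, and so single cells were examined next.

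In single members the Treg identity list ranged from 4.79 to 354 UMIs per 10000, with a median of 37.8, against medians of 42.4 in the Treg gate and 14.3 in the Tfh gate. The Tfh programme list ranged from 8.18 to 114 with a median of 42.9, against 21.1 in the Treg gate and 50.5 in the Tfh gate. Levels that 90% of the opposite gate stayed below were taken as limits, 32.0 for the Treg list and 51.4 for the Tfh list. Both limits were passed by 24 members (21.2%), against 9.82% of the Treg gate and 7.06% of the Tfh gate. Because 90% of each comparison gate lay below a limit by construction, its share was capped in advance. The difference from the Tfr gate is therefore a description and not a test. Another 41 members (36.3%) passed only the Treg limit, 14 (12.4%) only the Tfh limit and 34 (30.1%) neither.

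**Figure D4:**
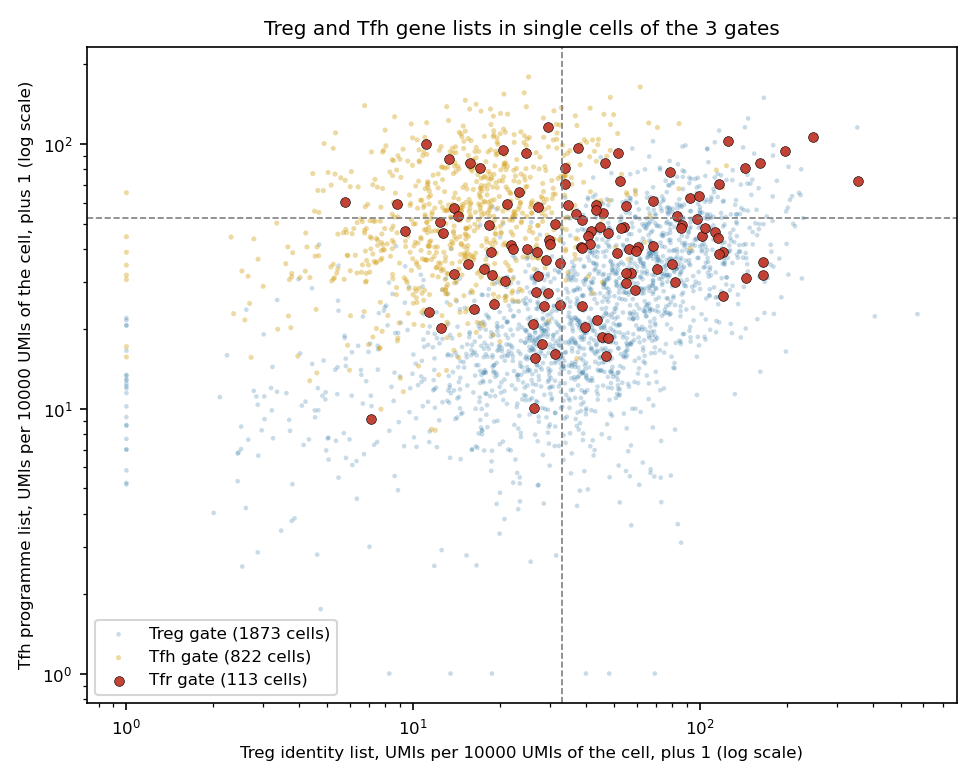
Each point is 1 cell, with UMIs of the Treg identity list (x axis) and the Tfh programme list (y axis) per 10000 UMIs of the cell, plus 1, on log scales; Tfr gate in red, Treg gate in blue, Tfh gate in yellow, dashed lines at 32.0 and 51.4 (each plus 1). The 113 members spread over both clouds and the space between them, and 24 lie above both lines.

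The members with both lists high were not the deepest ones. Their median depth was 7722 UMIs, against 11756 in those with only the Treg list high and 15221.5 in those with neither. The highest doublet scores were held by 7 of the 24, 12 of the 41 and 12 of the 34, and by 1 of the 14 with only the Tfh list high. Without these cells 17 of 81 members (21.0%) passed both limits, against 10.5% of the Treg gate and 7.60% of the Tfh gate. Among cells with 5000 to 15000 UMIs 13 of 65 members (20%) did, against 7.01% and 7.05%. Here too the limits, taken from the comparison gates, kept the shares of those gates low. Foxp3 had 2 or more UMIs in 15 of the 24 members with both lists high and in 0 of the 14 with only the Tfh list high, of which 6 had an Il21 UMI and 0 had Gzmb. An Il21 UMI was also found in 3 members with both lists high, 4 with only the Treg list high and 5 with neither. Sostdc1 had a UMI in 3 members with both lists high, 2 with only the Treg list, 3 with only the Tfh list and 3 with neither.

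**Figure D5:**
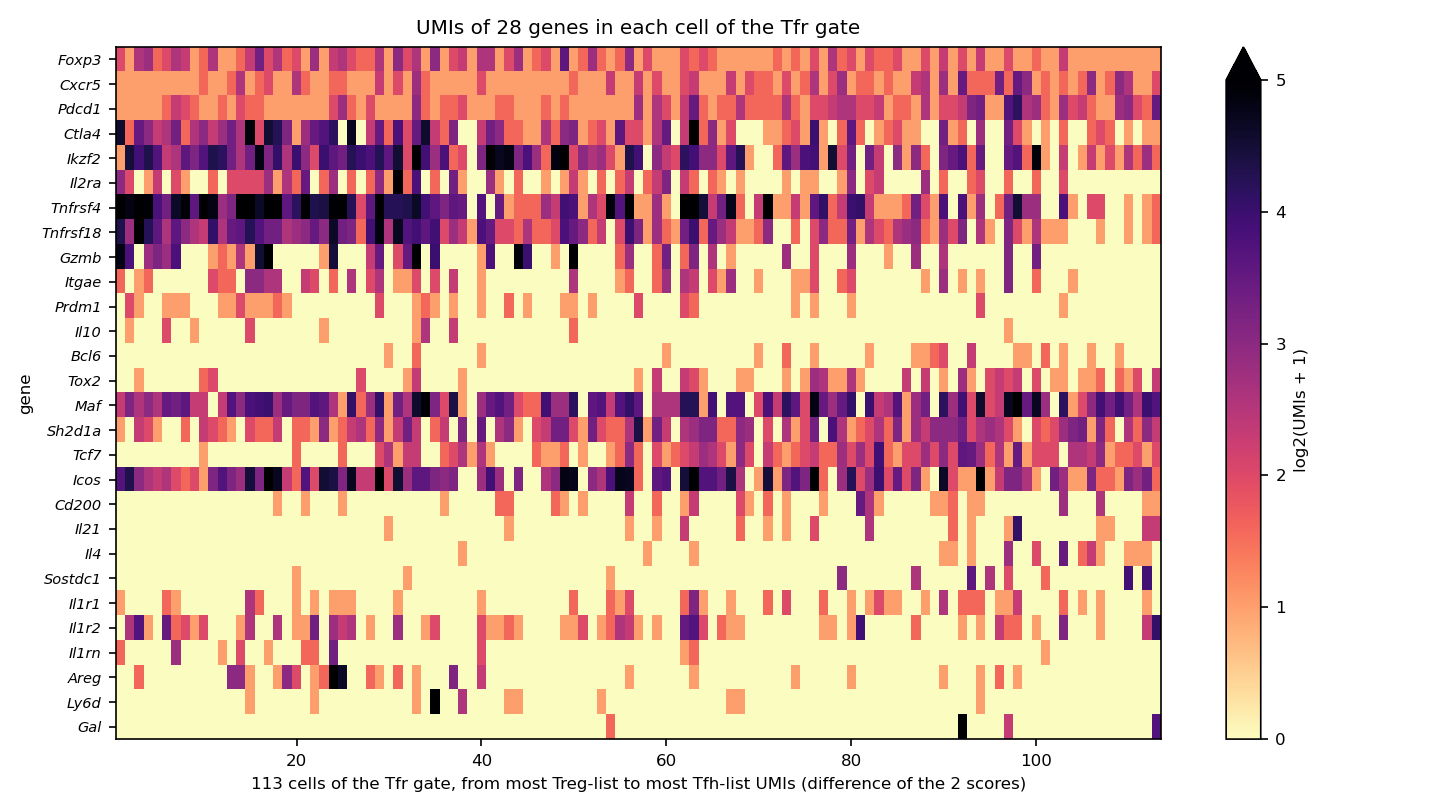
UMIs of 28 genes (rows) in each of the 113 members (columns), ordered by the Treg identity list relative to the Tfh programme list; darker squares hold more UMIs. Gal is carried almost wholly by 1 member, while Ctla4 and Ikzf2 are found across nearly the whole gate.

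Strength of Foxp3 signal divided the members further. Those with 2 or more Foxp3 UMIs (63 cells, median 12075 UMIs, 38.1% with the highest doublet scores) had Il2ra at 185 CPM, Ctla4 at 438 and Gzmb at 374. Those with 1 UMI (50 cells, median 7973.5 UMIs, 16.0%) had Il2ra at 75.4 CPM, Ctla4 at 239 and Gzmb at 198. Bcl6 went the other way, with 10.2 CPM in the first and 32.3 CPM in the second, as did Tcf7 with 140 and 228 CPM. Il1r2 was at 141 and 111 CPM.

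Genes led by few cells stand apart. Gal, a neuropeptide gene, had 193 UMIs and 126 CPM, of which 90.7% were in 1 member and the rest in 3 others. Il22, a cytokine of Th17-type cells, was at 35.2 CPM in 10 members, against 1.66 CPM in the Treg gate and 108 in the Tfh gate.

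Foxp3 cells with only 1 of the follicular receptors had less Tox2, Il21, Sostdc1 and Il1r1 than the Tfr gate, while Icos, Sh2d1a and Tcf7 came close to it in at least 1 of the groups. Tox2 was at 13.5 CPM in Foxp3 cells with Cxcr5 but no Pdcd1, at 14.2 CPM in those with Pdcd1 but no Cxcr5, and at 65.2 CPM in the Tfr gate. Il21 was at 1.69, 5.07 and 32.6 CPM in the same order, and Sostdc1 at 13.5, 4.88 and 41.7 CPM. Il1r1 was at 10.1, 14.2 and 48.9 CPM. Bcl6 was at 11.8 (7.30 to 18.0), 5.66 and 18.3 CPM (12.1 to 26.4), and Il1rn at 12.9 (8.19 to 19.4), 5.85 and 21.5 CPM (14.8 to 30.2). For both genes the interval of the cells with Cxcr5 but no Pdcd1 overlapped that of the Tfr gate. Areg was at 112, 86.3 and 88.0 CPM, and Lag3 at 96.1, 102 and 115 CPM, so neither level was particular to the Tfr gate. Nr4a1 was at 18.0, 29.7 and 35.2 CPM. Tcf7 was at 156 CPM with Cxcr5 alone and 172 CPM in the Tfr gate, and Icos at 675 CPM with Pdcd1 alone and 672 CPM in the Tfr gate. Il1r2 was at 92.7 and 108 CPM in the cells with 1 receptor, between the 56.0 CPM of the Treg gate and the 130 CPM of the Tfr gate. Il10 was at 55.2 CPM in the cells with Pdcd1 alone, against 14.0 CPM with Cxcr5 alone and 14.3 CPM in the Tfr gate. The share of cells with an Il10 UMI did not follow that order, at 7.96%, 7% and 8.85%.

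The bulk Tfr libraries gave a view of sorted cells, with 1 library each. The library labelled KO had 27777625 counts and the library labelled WT 18076300. Sostdc1 had 458 counts (16.5 CPM) in the first and 4 counts (0.221 CPM) in the second, which goes against the labels, so no direction is drawn from their difference. Foxp3 was at 1164 and 1471 CPM in the libraries labelled KO and WT. Cxcr5 was at 62.8 and 55.7 CPM, Pdcd1 at 229 and 164 CPM, and Bcl6 at 20.3 and 17.2 CPM.

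Of the 12 genes with the highest folds over the Treg gate, 11 were in the bulk table, and 10 and 9 of them reached 1 CPM in the libraries labelled KO and WT. Many genes reached that level. Padi4 at 1.04 CPM stood at percentile 56.5 of all genes in the library labelled KO. Fzd7 at 1.11 CPM stood at percentile 54.5 in the library labelled WT. The counts therefore do not set these genes apart. Il1r2 was at 1007 and 620 CPM in the libraries labelled KO and WT, Il1rn at 216 and 288 CPM and Il1r1 at 78.2 and 59.6 CPM. Il21 was at 82.8 and 4.09 CPM and Il4 at 46.5 and 1.66 CPM, and no direction is drawn from these differences either. Ly6d, led by 1 cell in the Tfr gate, was at 0.180 and 0.111 CPM.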

How the data were processed

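RNA was measured in 1 single-cell and 2 bulk libraries. Libraries were made with the 10x Chromium 3′ v2 kit (single cells) or from Trizol RNA with NEBNext Ultra (bulk), per the labels' protocols. Tools in the submitters' processing notes, given with no roles, are Cell Ranger 2.1.0, Seurat 2, HOMER, MACS2, Bowtie2, TopHat, Cufflinks and bedtools; builds are mm10 and mm9. The matrix header, per the file headers, names version 3.1.0. The deposited matrix gives UMI counts of each gene per barcode, and the deposited bulk table holds whole-number counts; its other columns were not used. The WT column was matched although its name has a number that the title does not.

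Of 15002 barcodes, 835 had under 500 genes and 977 of the rest had 10% or more mitochondrial UMIs; these were not used. UMIs were summed per gate and scaled to 1000000; a sum of 0 was set at 3 UMIs (1.96 CPM in the Tfr gate). Intervals are exact Poisson (CPM), conditional binomial (folds) and Clopper-Pearson (shares), at 95%. With 1 library per group no test was run. Scrublet scores came from scanpy 1.11.5; its threshold marked only 2 cells, so the top 10% of scores was used. B cells were cells with Cd79a and Ms4a1 and without T cell genes; myeloid cells had at least 5 Lyz2 UMIs and neither Cd3 genes nor Cd79a. The scripts were tested on simulated data and used Python 3.11.15, NumPy 2.4.6, SciPy 1.17.1, pandas 2.3.3 and matplotlib 3.10.9.

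The members and the 27 gene lists were chosen with earlier results of these data known. Genes were named by rule: 12 fixed genes, the 12 highest and 12 lowest folds per comparison, up to 12 above or below both gates, and up to 4 per list, leaving out predicted models, receptor segments and mitochondrial genes. Further list genes, the limits for single cells, the split by Foxp3 UMIs and the myeloid gate were chosen after values were seen.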

Additional observations from a re-analysis of the deposited data

How the results depend on the processing

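Depth limits the gate: a sum of 3 UMIs is 1.96 CPM there, and 113 cells leave wide intervals for genes such as Il10. Of 15 planned and 2 added alternatives (without cells with a haemoglobin UMI, and without the member with most UMIs of a gene, both chosen after seeing the data), several moved counts of cells or genes by over 1.5 times. Members numbered 74 with under 5% mitochondrial UMIs, 63 with Foxp3 at 2 UMIs, 17 with all gate genes at 2 UMIs, 65 with 5000 to 15000 UMIs, 54 without cycling cells and 65 without markers of other types. Genes higher and lower than the Treg gate, then the Tfh gate, numbered 398, 215, 384 and 214 with all gate genes at 2 UMIs, 221, 159, 231 and 201 without cycling cells, 289, 239, 352 and 287 at 5 CPM, 33, 26, 63 and 31 at 50 CPM, and 345, 221, 368 and 307 at 1.5-fold. Foxp3 at 2 UMIs gave 227 higher and 125 lower than the Tfh gate. Cells with 5000 to 15000 UMIs gave 189 and 114 against the Treg gate and 135 lower than the Tfh gate. Without the highest doublet scores 127 were lower than the Treg and 146 lower than the Tfh gate. Without markers of other types 168 and 133 differed from the Treg gate, and with 5 CPM added 57 were higher than the Treg and 39 lower than the Tfh gate. The other counts stayed within 1.5 times.

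Of 55 named genes past 2-fold against the Treg gate, 30 stayed past it in every alternative run, Il21, Il4, Sostdc1, Tox2, Il1r1 and Il1rn among them and Il1r2 not; of 65 against the Tfh gate, 33 did, with Il2ra, Ctla4, Gzmb, Prdm1 and Il1rn among them and Il1r2 and Il21 not. Signs turned, in log2, against the Treg gate for Ly6d (-1.65 with all gate genes at 2 UMIs, -0.89 with 5000 to 15000 UMIs, -1.90 without the highest doublet scores, -1.43 without its top member), Pdzk1ip1 (-0.65 with all gate genes at 2 UMIs), Tamm41 (-0.73 with 5000 to 15000 UMIs, -0.27 without cycling cells), Slc16a1 (-0.42 without cycling cells) and Fabp4 (-1.39 without markers of other types). Against the Tfh gate they turned for Nrn1 (-0.81 under 5% mitochondrial UMIs, -0.78 without cycling cells), Lyz2 (0.18) and Ifitm1 (0.10) with all gate genes at 2 UMIs, Ifitm3 (0.77), Il2 (0.23) and Tamm41 (-0.39) with 5000 to 15000 UMIs, Ly6d (-0.75 without the highest doublet scores), Cxcl10 (1.06), Tamm41 (-0.0014), Ube2c (-0.10) and Nkg7 (-0.46) without cycling cells, and Fabp4 (-0.98 without markers of other types). The cause was not tested. No paired analysis was possible because each group is 1 library.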
